A study of Mus musculus with 8 samples.

Results

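Homeobox genes encode transcription factors that assign regional and lineage identity in the embryo. A group of 80 such genes outside the Hox clusters was followed in mouse embryonic stem cells (ES cells) and in embryoid bodies at day 2 (EBd2), the floating clusters that such cells form once they are allowed to differentiate. They were picked by gene symbol alone from the 36255 genes of the deposited count table. By homeodomain family they fall into 10 groups, which are 12 NK genes, 10 Paired-like genes, 8 Pax genes, 7 LIM genes, 7 TALE cofactors (Meis and Pbx), 6 Sine oculis genes, 6 Iroquois (Irx), 6 Distal-less (Dlx), 3 Cut (Onecut) and 15 others related to Antennapedia. Poly(A) RNA was sequenced from 4 groups of 2 libraries each: ES cells with a floxed, undeleted Skp1a gene (fl/fl, lots 1 and 2), ES cells labelled Skp1a knockout (KO, lots 1 and 12), fl/fl EBd2 (lots 1 and 12) and KO EBd2 (lots 1 and 2). Skp1a encodes the adaptor that joins F-box proteins to CUL1 in SCF ubiquitin ligases. How and when Skp1a was deleted, whether a genotype is 1 clone, and what a lot stands for are not stated in the labels. The p-values therefore reflect no more than how far libraries of a group differ, and that spread may be technical. A tissue field in the labels calls every KO library ES cells and every fl/fl library embryoid bodies, against the sample titles; the groups follow the titles. The series asks how loss of Skp1a alters expression at each stage, with a title on how SKP1A-dependent degradation of PRC2, a Polycomb complex, bears on silenced genes.

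In ES cells most genes of these families are held at a low level under Polycomb complexes, with CpG-rich promoters that carry repressive histone marks, and they are switched on in particular lineages as cells differentiate. Most of their products bind short, often AT-rich DNA sites through a homeodomain, whose recognition helix contacts the bases. Meis and Pbx proteins differ from the rest in being cofactors that bind DNA together with Hox and other homeodomain proteins, and Sine oculis proteins act with Eya coactivators.

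The stretch that encodes the recognition helix is shown for the close relatives Prrx1 and Prrx2. Only Prrx1 of this pair was called in KO EBd2. It is also shown for Pitx1, of the same Paired-like family, and for genes of other families on which the results below turn. The following coding-strand stretches of 36 bases (GENCODE vM21 coding sequences, GRCm38) begin at the codons for the conserved tryptophan, phenylalanine, any residue and asparagine of that helix, which are in capitals.
Pitx1, chr13:55826573-55826608, minus strand: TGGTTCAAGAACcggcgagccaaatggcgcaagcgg
Prrx1, chr1:163257904-163257939, minus strand: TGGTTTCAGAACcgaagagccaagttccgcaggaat
Prrx2, chr2:30879495-30879530, plus strand: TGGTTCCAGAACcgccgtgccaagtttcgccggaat
Six4, chr12:73112363-73112398, minus strand: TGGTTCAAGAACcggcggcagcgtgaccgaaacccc
Nkx6-3, chr8:23157585-23157620, plus strand: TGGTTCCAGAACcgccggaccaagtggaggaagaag
Pbx2, chr17:34594810-34594845, plus strand: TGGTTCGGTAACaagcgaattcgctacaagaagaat
Of these 36 bases, 30 were the same in Prrx1 and Prrx2, 27 in Pitx1 and Nkx6-3, 22 in Pitx1 and Six4, and 18 in Pbx2 and Six4. The motif searched was TGGTTNNNNAAN on the coding strand and in frame, with the third base of the phenylalanine and asparagine codons limited to T or C. It was found in the longest coding sequence of 70 of the 80 genes (87.5%) and in 456 of 21540 protein-coding genes in all (2.12%). Pax5 and Pax9 were among the genes without it.

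RefSeq promoter windows (250 bases before to 50 after a start, GRCm38.p6) matched 52 of the 80 genes. Of these, 35 had a start with at least 50% G+C and an observed-to-expected CpG ratio of at least 0.6, or 67.3%, against 48.3% of the 17492 protein-coding genes in the table. Promoter stretches of Nkx6-2 and Nkx2-9, NK genes of the ventral neural tube that both rose in KO EBd2, are shown because they lie wholly upstream of the annotated transcripts. The 150 bases before each start are given 5′ to 3′ with every CpG in capitals.
Nkx6-2, chr7:139582798-139582947, minus strand: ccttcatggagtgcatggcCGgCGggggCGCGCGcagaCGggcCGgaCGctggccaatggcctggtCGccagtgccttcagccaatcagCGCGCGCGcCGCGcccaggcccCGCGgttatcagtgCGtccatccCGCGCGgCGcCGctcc
Nkx2-9, chr12:56613285-56613434, minus strand: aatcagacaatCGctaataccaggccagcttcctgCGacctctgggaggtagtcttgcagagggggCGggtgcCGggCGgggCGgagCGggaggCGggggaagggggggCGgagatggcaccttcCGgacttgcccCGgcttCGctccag
The Nkx6-2 stretch holds 23 CpGs and the Nkx2-9 stretch 12. By the CpG ratio of the whole window, Nkx6-2 met the limit of 0.6 (0.972) and Nkx2-9 did not (0.571). The homeodomain core site TAATTA, which reads the same on both strands, was present in 2 of the 58 starts of these genes (3.45%) and in 4.53% of all starts.

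Total counts were 21545868 to 23343471 in the ES libraries and 7858452 to 10055667 in EBd2, so low genes were measured less precisely in EBd2. Skp1a itself was lower in KO, at 85.9% of the fl/fl level in ES cells (log2 fold change -0.22 ± 0.03 SE, adjusted p = 0.00073) and 72.8% in EBd2 (-0.46 ± 0.04, adjusted p = 5.13e-07); a count over the whole gene does not show whether the floxed stretch is missing. Levels are given in CPM, the counts-per-million unit, scaled by TMM factors between libraries, adjusted p comes from edgeR's quasi-likelihood test with Benjamini-Hochberg correction over the 16542 genes tested, and "rose" and "fell" mean an adjusted p under 0.05. Summed levels of 12 naive ES cell markers were 2540 to 2930 CPM in the ES groups and 1220 to 1590 CPM in EBd2. In EBd2, sums over marker lists also differed between genotypes: 15 endoderm markers summed to 542 to 592 CPM in fl/fl and 1270 to 1280 CPM in KO, 16 streak and mesoderm markers to 34.3 to 36.3 and 188 to 195 CPM, 10 trophectoderm markers to 289 to 298 and 755 to 772 CPM, and 14 neural progenitor markers to 380 to 388 and 165 to 172 CPM. Msgn1 and Neurog2 were at 0 in fl/fl EBd2 and Hes5 in KO EBd2. The part of such cell types in the results below was not tested, and in bulk RNA fewer cells of a type and less RNA per cell cannot be told apart.

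Of the 80 genes, 41 reached a mean of 1 CPM in at least 1 group. The median gene stood at 0.47 CPM in fl/fl ES cells, 0.537 in KO ES cells, 0.443 in fl/fl EBd2 and 0.937 in KO EBd2. In KO EBd2, 31 genes lay between 1 and 10 CPM, against 22 in fl/fl EBd2, 23 in KO ES cells and 21 in fl/fl ES cells. The sum over the 80 genes went the other way between the EBd2 groups, at 368 to 377 CPM in fl/fl and 265 to 289 CPM in KO, with the abundant genes Six4 and Pbx2 lower in KO. Per kb of exon, the highest level in every group was that of Pbx2, a ubiquitous Hox cofactor, at 18.9 CPM per kb in fl/fl ES cells, 20.3 in KO ES cells, 18.3 in fl/fl EBd2 and 11.8 in KO EBd2. Six4, a partner of Eya proteins, was next in 3 groups, at 9.07, 8.46 and 11.5 CPM per kb in the same order, whereas in KO EBd2 Nkx2-9 (6.47 CPM per kb) stood above Six4 (4.72 CPM per kb).

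**Figure D1:**
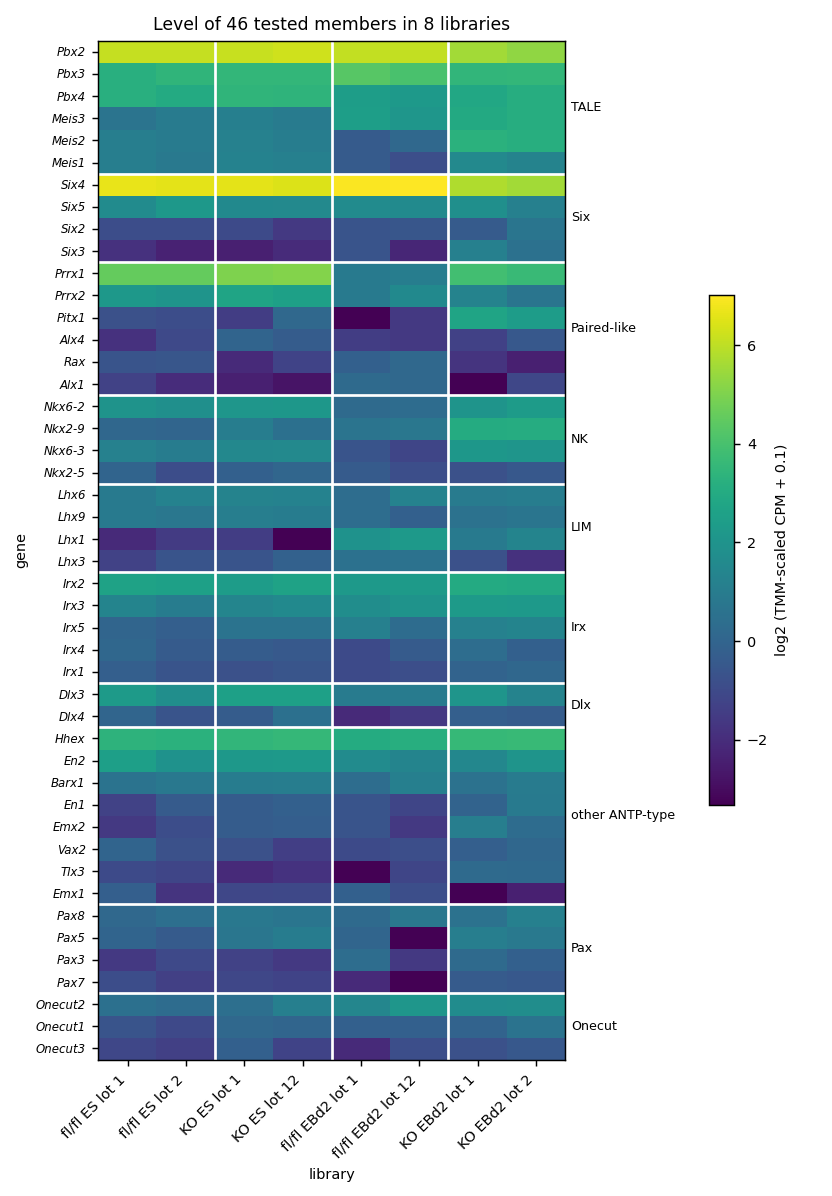
Level of 46 of the 51 genes that passed the low-count filter (rows, by family) in the 8 libraries (columns), as log2 of TMM-scaled CPM plus 0.1. Pbx2 and Six4 are high in every library, and Meis2, Nkx2-9 and Pitx1 are brighter in the KO EBd2 columns than in the fl/fl EBd2 columns.

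The filter on low counts kept 51 of the 80 genes. The 29 it removed had 0 to 64 counts over all 8 libraries (median 15), and Pax4, a regulator of pancreatic beta cells, had none. A gene that passed only through the group in which it is high had to differ. The counts of called genes and the median differences below therefore describe the 51. They are not evidence about the families as a whole. Among the removed genes, Dlx1, a forebrain interneuron regulator, had 0 counts in fl/fl EBd2 and 16 in KO EBd2, at least 4.01-fold higher when fl/fl is set at a floor of 3 counts over the group. Nkx6-1, which specifies motor neurons and beta cells, had 1 count in fl/fl EBd2 and 15 in KO EBd2, a ratio of 11.3 with an exact 95% interval of 1.73 to 475. These 2 genes do not stand for the 29, some of which had count ratios near or below 1. Six6, for example, had 4 counts in fl/fl EBd2 and 5 in KO EBd2, a ratio of 0.94 (0.202 to 4.74). Intervals and floors of this kind cover counting error only.

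In ES cells 2 of the 51 genes, Prrx1 among them, rose in KO and none fell. That share of 3.92% stood against 23.7% of all genes tested (10.9% higher and 12.8% lower). At an unadjusted p under 0.05, edgeR gave 9 higher and 1 lower, and DESeq2 called 2 higher and 0 lower after adjustment. Prrx1, a regulator of limb and craniofacial mesenchyme, was at 23.5 and 23.9 CPM in fl/fl and at 32.5 and 34.1 CPM in KO (+0.49 ± 0.07, adjusted p = 0.000632). The KO libraries lay above the fl/fl libraries, and for 30 of the 51 genes the groups did not overlap. Prrx2, the close relative of Prrx1, was at 4.45 and 4.01 CPM in fl/fl and 6.47 and 5.79 CPM in KO and did not pass (+0.53 ± 0.18, adjusted p = 0.0519). The median over the 51 genes was +0.23 on the log2 scale, against 0.00 over all genes tested.

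In EBd2, 18 of the 51 genes rose in KO and 11 fell, or 56.9% in all. Over all genes tested the share was 62.2%, with 30.7% higher and 31.5% lower, so the share of called genes here is near the background. The median log2 difference of the 51 genes was +0.53, against 0.00 for all genes tested. The 51 include genes that were high only in KO EBd2. Six3 and Tlx3 had means of 1.75 and 1.08 CPM there and at most 0.328 and 0.373 CPM in each other group. Each of the 18 genes that rose had a mean of at most 8.49 CPM in fl/fl EBd2. Six4, Pbx2 and Pbx3, each with a mean above 15 CPM there, fell. Emx1, Rax, Alx1 and Lhx3 fell too, from means of 0.636, 0.924, 1.06 and 1.37 CPM. The fl/fl EBd2 level is also the reference of the fold change, so level and direction are not independent. With library sizes alone in place of TMM scaling, 7075 of all genes were higher and 3345 lower, against 5072 and 5217 with TMM and the median log2 difference of all genes was then 0.231 in place of 0.004; these genes then divided into 21 higher and 10 lower. The calls of Meis1, Meis2, Nkx2-9, Nkx6-2, Nkx6-3, Pitx1, Prrx1 and Six4 held under each alternative run. The EBd2 groups did not overlap for 42 of the 51 genes, and no share over all genes was computed. In ES cells the groups did not overlap for 30 genes, of which few were called. Absence of overlap was also a condition for naming the largest changes, so it adds no support to the genes named below.

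**Figure D2:**
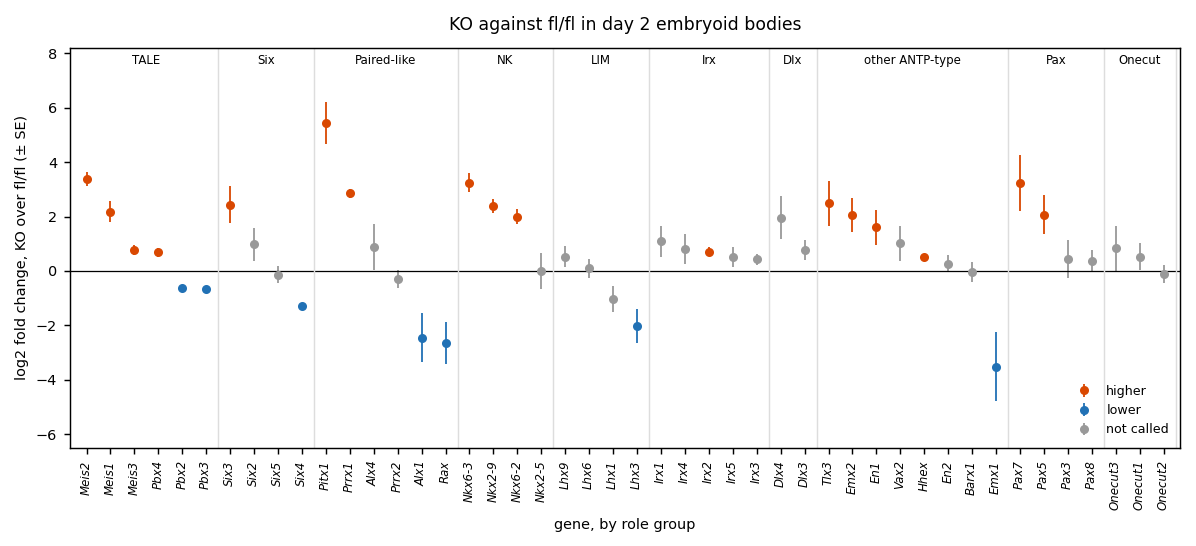
Log2 fold change, KO over fl/fl in EBd2, of 46 of the 51 genes tested (x axis, grouped by family), with bars for ± SE; orange marks genes that rose, blue those that fell and grey those not called. Both directions occur within the TALE, Sine oculis and Paired-like families and among the other genes related to Antennapedia. Values run from +5.44 for Pitx1, a Paired-like gene, to -3.53 for Emx1, of the Antennapedia-related group.

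Both directions were seen among the TALE cofactors, where the 3 Meis genes and Pbx4 rose while Pbx2 and Pbx3 fell. Meis2, which marks hindbrain, limb and neural crest, was at 0.675 and 1.04 CPM in fl/fl and at 9.5 and 8.85 CPM in KO (+3.39 ± 0.26, adjusted p = 5.17e-07). Meis1, a Hox cofactor in blood and limb, was at 0.675 and 0.462 CPM in fl/fl and 2.84 and 2.33 CPM in KO (+2.18 ± 0.39, adjusted p = 0.00044). Both went up from under 1.1 CPM, and no KO library overlapped a fl/fl library. Meis3, a hindbrain regulator, was already at 5.4 and 4.15 CPM in fl/fl and reached 7.64 and 8.5 CPM in KO (+0.77 ± 0.2, adjusted p = 0.00666). Its call ended without fl/fl EBd2 lot 12 (+0.58, adjusted p = 0.0676).

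Pbx2 was at 66.3 and 67.3 CPM in fl/fl and 47.2 and 38.9 CPM in KO (-0.64 ± 0.09, adjusted p = 5.93e-05). Pbx3, which patterns limb and hindbrain, fell by 0.68 ± 0.13 on the log2 scale, from a mean of 18.1 ± 2.52 CPM (SD, n = 2) to 11.2 ± 0.202 CPM. Pbx4 rose from 4.94 ± 0.458 to 7.92 ± 0.944 CPM (+0.69 ± 0.17, adjusted p = 0.00375). Pbx2 and Pbx3 fell from means above 15 CPM, and the Meis genes that rose remained below 10 CPM in each library. Pbx2 shares exon bases with Gpsm3 on the same strand, which had 39 to 52 counts in the EBd2 libraries. How reads in the shared bases were counted is not given.

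Among the Sine oculis genes, Six4 fell and Six3 rose. Six4 was at 122 and 129 CPM in fl/fl EBd2 and at 55 and 47.6 CPM in KO (-1.29 ± 0.07, adjusted p = 4.66e-08). The lower fl/fl library was more than 2 times the higher KO library. Six6, an eye and pituitary gene, had 18 counts over all libraries. Six3, which sets up forebrain and eye, had 4 and 1 counts in fl/fl EBd2 and 22 and 15 counts in KO (+2.44 ± 0.69, adjusted p = 0.00952). That call rests on few counts, since it ended without fl/fl EBd2 lot 12 (adjusted p = 0.105) or KO EBd2 lot 1 (0.0852) and, without fl/fl EBd2 lot 1, the estimate was +3.83. Six2, a kidney progenitor factor 55.0 kb from Six3, was at 0.54 and 0.577 CPM in fl/fl and 0.686 and 1.52 CPM in KO and did not pass (adjusted p = 0.182).

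Of the Paired-like genes, Pitx1 rose from almost no counts. Pitx1, which specifies hindlimb and pituitary, had 0 and 2 counts in fl/fl EBd2 and 65 and 57 counts in KO (+5.44 ± 0.77, adjusted p = 7.73e-05). The ratio of the summed counts was 45.9, with an exact 95% interval of 12.4 to 383. Without fl/fl EBd2 lot 12 the fl/fl level is 0 counts and the fitted value (9.56) has no fixed size. In CPM, the fl/fl libraries averaged 0.115 ± 0.163 and the KO libraries 5.73 ± 0.899 (SD, n = 2).

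Prrx1 rose from 1.75 and 1.96 CPM in fl/fl EBd2 to 14.5 and 12.6 CPM in KO (+2.85 ± 0.17, adjusted p = 7.21e-08), whereas Prrx2 was at 1.75 and 2.88 CPM in fl/fl and 2.35 and 1.52 CPM in KO (-0.29 ± 0.32, adjusted p = 0.445). The Prrx1 libraries did not overlap and those of Prrx2 did. Prrx1 is also a gene of fibroblasts. The 20 fibroblast feeder markers summed to 2970 to 3090 CPM in fl/fl ES cells, 2910 to 3140 in KO ES cells, 909 to 968 in fl/fl EBd2 and 1400 to 1520 in KO EBd2. Of the 19 markers tested, 7 were higher in KO in ES cells and 17 in EBd2. Col1a1, the main fibrillar collagen, averaged 296, 318, 10.1 and 61.4 CPM in that order of groups, and Postn 14.6, 16.8, 0.481 and 2.64 CPM. Other markers of the list had other patterns, with Col6a1 at 28.3, 38.8, 3.52 and 42.7 CPM, Pdgfra at 10.4, 9.85, 8.93 and 54.6 CPM and Thy1 at 17.4, 24.3, 24.2 and 23.8 CPM. None of the 20 markers was at 0 in any group, and the part of feeder cells in the Prrx1 values was not tested.

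Of the NK genes, Nkx6-3, Nkx2-9 and Nkx6-2 rose. Nkx6-3, a factor of stomach and hindbrain, was at 0.54 and 0.346 CPM in fl/fl EBd2 and at 4.31 and 4.11 CPM in KO (+3.25 ± 0.35, adjusted p = 7.84e-06). Nkx2-9 was at 1.48 and 1.62 CPM in fl/fl and 8.03 and 8.32 CPM in KO (+2.39 ± 0.27, adjusted p = 1.23e-05), and Nkx6-2, with the CpG-rich promoter shown above, at 1.08 and 1.15 CPM in fl/fl and 3.92 and 5.01 CPM in KO (+1.99 ± 0.27, adjusted p = 5.94e-05). Each was clear of overlap between groups, as were 42 of the 51 genes in EBd2. Nkx2-9 lies between Nkx2-1, 74.5 kb away, and Pax9, 78.5 kb away, on chromosome 12. Nkx2-1, the lung and thyroid regulator, had 3 counts over all libraries, and Pax9, a pharyngeal pouch factor, 42. Only Nkx2-9 of these 3 passed the low-count filter. Exons of Nkx6-2 overlap those of Inpp5a on the other strand, which had 261 to 467 counts in the EBd2 libraries and 899 to 1076 in the ES libraries. Since the strand setting is not given, reads of the pair cannot be told apart. Of the 80 genes, 21 share exon bases with a gene on the other strand and 6 with a gene on the same strand. Besides Nkx6-2, the 21 include Pitx1, Meis1, Six3, Emx2, Pax5, Lhx3 and Dlx1.

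Several further calls in EBd2 rested on few counts. Pax5, of B cells and midbrain, had 7 and 0 counts in fl/fl and 21 and 19 in KO, and Emx2, of cortex and urogenital tissue, 4 and 2 against 21 and 13. Tlx3, of sensory neurons, had 0 and 3 counts against 11 and 12, Pax7, of neural crest and muscle stem cells, 1 and 0 against 7 and 7, and En1, of the midbrain-hindbrain border, 4 and 3 against 9 and 20. These 5 rose in KO, and their groups, like those of 42 of the 51 genes in EBd2, did not overlap. For Pax7 and Tlx3, whose fl/fl totals are 1 and 3 counts, the count ratios were 10.5 (exact 95% interval 1.6 to 445) and 5.76 (1.74 to 30.0).

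Each of those 5 calls ended when at least 1 library was left out. Emx2 was lost without fl/fl lot 12 (adjusted p = 0.117) or KO lot 1 (0.107), and Tlx3 without fl/fl lot 1 (+1.61, adjusted p = 0.13), KO lot 1 (0.0718) or KO lot 2 (0.0755). Pax5 was lost without fl/fl lot 12 (+0.99, adjusted p = 0.143), KO lot 1 (0.0917) or KO lot 2 (0.054), and Pax7 without the same 3 libraries (0.135, 0.0612 and 0.0527). En1 was lost without any 1 of 7 libraries, with adjusted p from 0.0505 to 0.324, and was at +1.0 without KO lot 2. Where the library left out held the only fl/fl counts, as fl/fl lot 1 for Pax5 and Pax7 and fl/fl lot 12 for Tlx3, the fitted values of 7.97, 6.46 and 7.15 have no fixed size.

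Rax, Lhx3, Alx1 and Emx1, all of low level, fell in KO EBd2. Rax, of the eye field, had 6 and 9 counts in fl/fl and 2 and 1 in KO (-2.66 ± 0.78, adjusted p = 0.0117), and Lhx3, of pituitary and motor neurons, 10 and 12 against 5 and 2 (-2.03 ± 0.63, adjusted p = 0.0157). Alx1, of craniofacial mesenchyme, had 8 and 9 counts against 0 and 4, and Emx1, of the cortex, 6 and 4 against 0 and 1, a count ratio of 0.0752 (exact 95% interval 0.00173 to 0.528). Rax and Lhx3 lost the call without fl/fl lot 12 (adjusted p = 0.0714 and 0.0623) or KO lot 2 (0.0895 and 0.121), and Emx1 without fl/fl lot 1 (0.127) or KO lot 1 (0.135). Alx1 lost it without any 1 of 7 libraries (0.0515 to 0.178; -1.55 without KO lot 1). Without KO lot 2 the fitted values of Alx1 and Emx1 were -7.11 and -6.36, against 0 counts.

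The remaining families showed small or uncalled differences in EBd2. Hhex, of anterior endoderm and early blood, was at 8.1 and 8.88 CPM in fl/fl and 12 and 12.3 CPM in KO (+0.51 ± 0.12, adjusted p = 0.003), beside the endoderm marker sums given above. Irx2, an Iroquois factor of heart and neural patterning, rose from 4.72 ± 0.183 to 7.72 ± 0.3 CPM (+0.71 ± 0.17, adjusted p = 0.00358), and it was the only called gene of the 5 Iroquois genes tested. Neither Dlx gene tested was called, Dlx3 at 1.87 ± 0.0304 and 3.22 ± 1.27 CPM (adjusted p = 0.0825) and its neighbour Dlx4, 15.2 kb away, at 0.183 ± 0.0678 and 0.75 ± 0.0483 CPM (0.0518). Lhx1, of the head organizer, was at 3.78 and 4.73 CPM in fl/fl and 1.76 and 2.41 CPM in KO. Its libraries did not overlap, but the difference did not pass (-1.02 ± 0.48, adjusted p = 0.0859). The hindbrain gene En2, the dorsal neural tube gene Pax3, the cardiac gene Nkx2-5 and the 3 Onecut genes were not called, with adjusted p from 0.381 to 0.999.

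**Figure D3:**
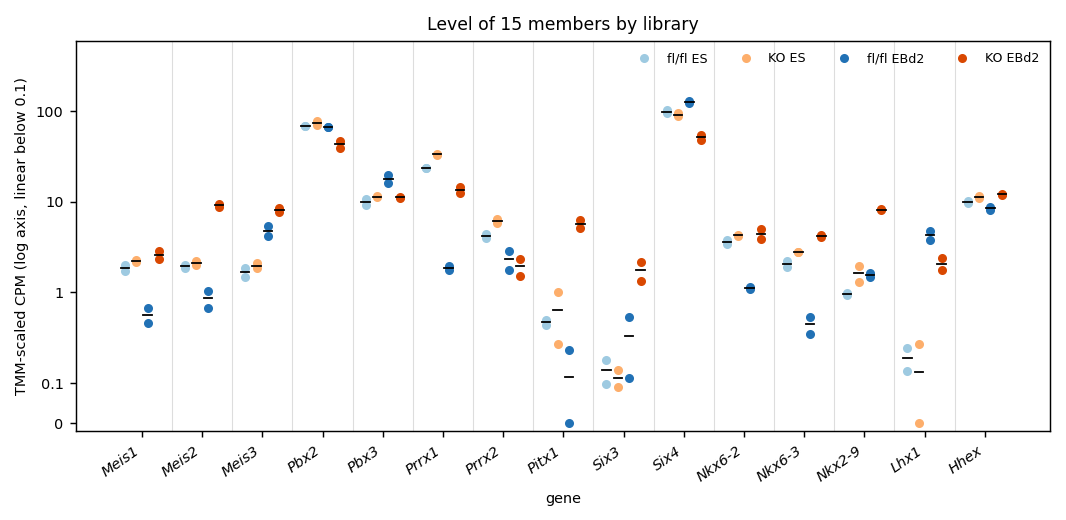
TMM-scaled CPM of 15 genes in each library (points; the y axis is logarithmic and linear below 0.1), with a dash at the mean of each group of 2. Meis1, Meis2, Nkx6-2, Nkx6-3 and Prrx1 are lowest in fl/fl EBd2, and Pbx2 and Six4 are lowest in KO EBd2.

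From ES cells to EBd2 in fl/fl cells, 11 of the 51 genes rose and 10 fell, or 41.2%, against 59.0% of all genes tested (28.9% higher and 30.1% lower). The largest rise was that of Lhx1, with 8 counts over both ES libraries and 69 over both EBd2 libraries (+4.45 ± 0.61, adjusted p = 7.51e-05). Meis3 (+1.51 ± 0.23), Pbx3 (+0.85 ± 0.12) and Six4 (+0.35 ± 0.06) rose too. Prrx1 fell furthest, to 7.91% of its ES level (-3.66 ± 0.15, adjusted p = 3.75e-09). Nkx6-3 (-2.22 ± 0.37), Meis1 (-1.72 ± 0.38), Nkx6-2 (-1.69 ± 0.26), Meis2 (-1.15 ± 0.31) and Pbx4 (-0.79 ± 0.15) fell as well. The Meis genes thus divided, with Meis3 up and Meis1 and Meis2 down. Of the 19 fibroblast feeder markers tested, 14 were lower and 1 higher with stage in fl/fl (median log2 -2.83). In KO, 11 were lower and 2 higher (median -0.87). The part of feeder cells in the changes with stage was not tested. The Meis2 fall ended without fl/fl EBd2 lot 1 (-0.9, adjusted p = 0.0955).

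The other calls of that comparison were weaker. Onecut2, of liver and neurons, rose by +1.47 ± 0.35 but not without fl/fl EBd2 lot 12 (adjusted p = 0.0756), and Irx3 by +0.69 ± 0.23 but not without fl/fl ES lot 2 (0.109) or fl/fl EBd2 lot 12 (0.182). Prrx2 fell (-0.84 ± 0.26) unless fl/fl ES lot 1 (adjusted p = 0.0614) or fl/fl EBd2 lot 1 (-0.55, 0.13) was left out, with -1.28 without fl/fl EBd2 lot 12. Dlx3, of placenta and ectoderm, fell (-1.14 ± 0.32) unless fl/fl ES lot 1 (0.0635) or fl/fl EBd2 lot 12 (0.0601) was left out. En2 (-0.78 ± 0.28) was lost without fl/fl ES lot 1 (-0.46, 0.206), fl/fl EBd2 lot 1 (0.0509) or fl/fl EBd2 lot 12 (0.195). Alx1 (+2.14 ± 0.76), Lhx3 (+1.67 ± 0.54) and Dlx4 (-1.95 ± 0.75) were lost without any 1 of 6, 3 and 5 libraries, with adjusted p from 0.0553 to 0.165, from 0.0702 to 0.128 and from 0.0567 to 0.199.

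In KO cells, 15 genes rose from ES cells to EBd2 and 9 fell, or 47.1%, against 64.8% of all genes tested (31.7% higher and 33.1% lower). The genes that rose most were again led by Lhx1 (+3.87 ± 0.68, adjusted p = 0.000398), whose KO ES libraries held 6 and 0 counts, so that without KO ES lot 1 the fitted value (7.93) has no fixed size. Six3 (+3.84 ± 0.66), Pitx1 (+3.15 ± 0.47), Tlx3 (+2.7 ± 0.67), Nkx2-9 (+2.32 ± 0.22), Meis2 (+2.11 ± 0.18) and Meis3 (+2.03 ± 0.2) also rose. The change differed from that in fl/fl by the interaction test for Pitx1, Tlx3, Nkx2-9 and Meis2, and did not pass it for Six3 (adjusted p = 0.0801), Meis3 (0.187) or Lhx1 (0.705). Among the falls were Prrx2 (-1.67 ± 0.24), Prrx1 (-1.3 ± 0.08), Six4 (-0.85 ± 0.07) and Pbx2 (-0.78 ± 0.08). Prrx1 therefore remained at 40.7% of its ES level in KO EBd2.

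The weaker calls in KO were those of Irx3 (+0.8 ± 0.2), which held with each library left out, and of Irx2, Nkx6-3, Onecut2, Six2, Pax3, Pbx4 and Dlx3, which did not. Pbx4 (-0.43 ± 0.12) was lost without KO EBd2 lot 1 (adjusted p = 0.089), and Dlx3 (-0.85 ± 0.25) without KO EBd2 lot 2 (-0.48, 0.146). Dlx3 was at -1.31 without KO EBd2 lot 1. Irx2 (+0.46 ± 0.14) was lost without KO ES lot 1 (0.0889) or KO EBd2 lot 1 (0.0711). Six2 (+1.78 ± 0.55) was lost without KO ES lot 12 (0.112) or KO EBd2 lot 2 (+1.09, 0.257), and Onecut2 (+0.91 ± 0.32) without KO ES lot 1 (+0.57, 0.181), KO EBd2 lot 1 (0.0812) or KO EBd2 lot 2 (0.1). Nkx6-3 (+0.6 ± 0.21) was lost without any 1 of 4 libraries (0.0717 to 0.102) and Pax3 (+1.75 ± 0.68) without any 1 of 6 (0.0601 to 0.187).

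The interaction term asks directly whether the KO effect differed between the stages, which is the same as whether the change with stage differed between genotypes. It was called for 17 of the 51 genes (33.3%, against 48.0% of all genes tested, 22.4% higher and 25.7% lower), 10 with a higher and 7 with a lower KO effect in EBd2. In Meis2 the change with stage was -1.15 in fl/fl and +2.11 in KO (interaction +3.27 ± 0.35, adjusted p = 1.61e-05). In Six4 it was +0.35 in fl/fl and -0.85 in KO (-1.19 ± 0.09, adjusted p = 1.52e-06). Nkx6-3 also had calls of opposite sign in the 2 genotypes (-2.22 and +0.6), whose call in KO was lost with single libraries left out. Meis1 and Nkx6-2 instead fell in fl/fl and were at +0.21 ± 0.26 and +0.07 ± 0.18 in KO, with interactions of +1.93 ± 0.47 (adjusted p = 0.0052) and +1.76 ± 0.33 (0.000965). For Lhx1, which rose in both genotypes, the interaction was not called (-0.58 ± 1.13, adjusted p = 0.705).

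**Figure D4:**
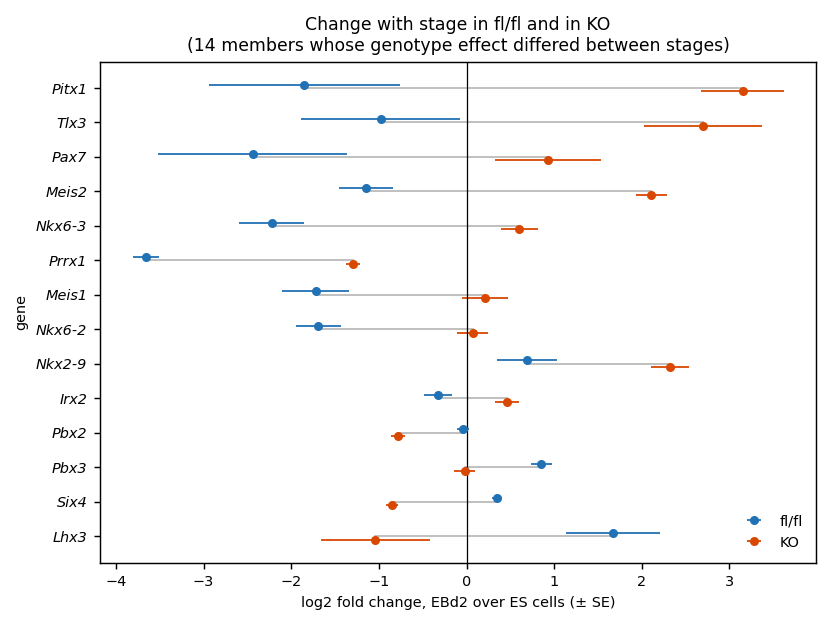
Log2 fold change from ES cells to EBd2 in fl/fl (blue) and KO (orange), with bars for ± SE, for 14 of the 17 genes whose genotype effect differed between stages. Meis2, Nkx6-3 and Six4 were called in opposite directions in the 2 genotypes, and Prrx1 fell in both but by less in KO.

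Genes related to these families were counted in EBd2 in the same fit. The low-count filter kept 29 of the 39 Hox genes, for which Meis and Pbx proteins are cofactors. Of these 29, 27 were higher in KO (median log2 +2.97), against 30.7% over all genes tested. A Hox gene that passed only through the group in which it is high had to differ. The count and median therefore describe the 29 and are not evidence about the Hox genes as a whole. Hoxb9, a posterior Hox gene, rose by +5.09 ± 0.3 (adjusted p = 6.11e-08). Of 31 other homeobox genes tested, 12 rose and 7 fell, or 61.3%, near the 62.2% of all genes tested. The 3 with the smallest p all fell, the epiblast and neural genes Otx2 (-3.23 ± 0.11) and Pou3f1 (-2.8 ± 0.08) and the TALE repressor Tgif2 (-1.92 ± 0.08). Among 18 cofactors of the Eya, Dach, Groucho and LIM-binding kind, 2 rose and 6 fell, or 44.4%, below that share; the Pbx partner Pknox1 fell (-0.45 ± 0.09) and Lmo1, a LIM-only protein, rose (+2.1 ± 0.6).

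Of the Polycomb genes, which keep many homeobox genes silent, both directions were seen in EBd2. Of 14 PRC2 genes tested, 7 rose and 4 fell, or 78.6%, against 62.2% of all genes tested. The catalytic subunit Ezh2 rose by +0.23 ± 0.04 and Eed, which reads the mark, by +0.29 ± 0.06, while Suz12, the scaffold, was at -0.08 ± 0.03 and not called (adjusted p = 0.0671). Of 25 PRC1 genes, 8 rose and 11 fell, or 76.0%. In ES cells the calls were 1 higher of 29 Hox genes, 3 lower of 31 other homeobox genes, 5 lower of 14 PRC2 genes, 3 higher and 7 lower of 25 PRC1 genes, and 2 higher and 3 lower of 18 cofactors. Those shares, from 3.45% for Hox genes to 40.0% for PRC1 genes, stood against 23.7% of all genes tested (10.9% higher and 12.8% lower).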

How the data were processed

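Poly(A) RNA was sequenced from 8 libraries in 4 groups. The deposited table holds raw counts per gene made by the authors; Trim Galore 0.6.7 and GRCm38 (mm10) come from the submitters' processing notes, and no aligner, counter, annotation or strand setting is given in the sources used here. Groups were taken from sample titles. The genes and the lists were chosen with earlier results of these data known.

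Counts were fitted in R 4.3.3 with edgeR 4.0.16: filterByExpr (minimum count 10), TMM factors, 1 coefficient per group, quasi-likelihood tests and Benjamini-Hochberg adjustment over 16542 genes at 0.05. The fit has 4 residual degrees of freedom and a biological coefficient of variation of 3.4%. SE is the log2 fold change divided by the root of F, two-sided. Count ratios have exact conditional intervals. The procedure was tested on simulated data. Alternatives used RLE factors, library sizes alone, other filters, DESeq2 1.42.0, a lot block, a 1.5-fold threshold, only the groups compared, thinning to 7858452 counts and each library left out. Annotation was GENCODE vM21, with promoters from RefSeq (GRCm38.p6); figures used matplotlib 3.10.9 under Python 3.11.15.

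Genes named were the largest called changes per comparison with non-overlapping groups, every gene at 5 CPM or more, neighbours within 100 kb, the TALE cofactors and 8 listed regulators. The other called genes given, Nkx6-1, Col1a1, Postn, Col6a1, Pdgfra and Thy1 were added after their values were seen. Results for some genes are not reported here, and counts of genes cover them.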

Additional observations from a re-analysis of the deposited data

Results flagged for a closer look

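For 17 genes the KO effect differed between EBd2 and ES cells by the interaction test (KO effect in EBd2 minus that in ES cells, log2 ± SE, edgeR), and 14 of them are given here. The difference was positive for Pitx1 (+5.0 ± 1.09), Tlx3 (+3.68 ± 1.1), Pax7 (+3.36 ± 1.23), Meis2 (+3.27 ± 0.35), Nkx6-3 (+2.82 ± 0.42), Prrx1 (+2.36 ± 0.19), Meis1 (+1.93 ± 0.47), Nkx6-2 (+1.76 ± 0.33), Nkx2-9 (+1.63 ± 0.4) and Irx2 (+0.79 ± 0.21). It was negative for Pbx2 (-0.74 ± 0.11), Pbx3 (-0.87 ± 0.17), Six4 (-1.19 ± 0.09) and Lhx3 (-2.71 ± 0.82). Lhx3 lost the call without fl/fl ES lot 1 (adjusted p = 0.0685), KO ES lot 12 (0.0863), fl/fl EBd2 lot 12 (0.0518) or KO EBd2 lot 2 (0.0812). Pax7 lost it without fl/fl EBd2 lot 12 (0.19), KO EBd2 lot 1 (0.102) or KO EBd2 lot 2 (0.0905), and Tlx3 without fl/fl ES lot 1 (0.0657), KO ES lot 1 (0.0656), fl/fl EBd2 lot 1 (0.0558) or KO EBd2 lot 2 (0.0517). DESeq2 did not call Lhx3, Pax7, Tlx3 or Irx2, and Nkx2-9 lost the call with lots as a block and after thinning. Without the fl/fl EBd2 library that held their only counts there, the values of Pitx1 (9.11, lot 12), Pax7 (6.58, lot 1) and Tlx3 (8.34, lot 12) have no fixed size.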

How the results depend on the processing

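Of the 93 calls over the 5 comparisons, 43 held in every alternative, namely 0 of 2 in ES cells, 11 of 29 in EBd2, 9 of 21 and 13 of 24 with stage in fl/fl and KO, and 10 of 17 for the interaction. RLE scaling and the stricter filter ended none, DESeq2 and the replicate block 26 each, and the 1.5-fold threshold 45. The 2 genes called in ES cells became 5 with library sizes alone, 6 with no low-count filter, 0 at 1.5-fold, 5 with only the groups compared and 1 to 5 with a library left out. The other counts ranged, with a library left out, over 21 to 26 in EBd2, 15 to 21 and 18 to 25 with stage in fl/fl and KO, and 14 to 20 for the interaction; at 1.5-fold they were 14, 10, 13 and 11. DESeq2 called 19 in EBd2, and thinning left 15 with stage in KO. With lots as a replicate block the 5 counts were 1, 20, 18, 18 and 13. Deviations of same-numbered lots from their group means had correlations from -0.022 to 0.018 between groups. The 2 libraries of a group deviate by equal and opposite amounts, so these values cannot show what a lot stands for. With library sizes alone the summed level was 306 CPM in fl/fl ES cells, 353 in fl/fl EBd2 and 306 in KO EBd2, against 321, 373 and 277. Of the KO differences in EBd2, neither of them called, that of Prrx2 ranged with a library left out from -0.64 to +0.13 (positive without fl/fl EBd2 lot 12) and that of En2 from -0.05 (without KO EBd2 lot 2) to +0.51. Over all genes, 3926 called in ES cells became 2236 with the block, 2105 after thinning, 1909 to 2233 without an ES library and 17 at 1.5-fold, where the other comparisons gave 3910, 3043, 3733 and 2331. The cause of these changes was not tested. Genes under about 0.4 CPM lie at the floor of 3 counts in the EBd2 libraries.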
